A study of Homo sapiens with 13 samples.

Results

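Serum-starved human osteoblasts treated with peonidin-3-O-glucoside (POG) were compared with serum-starved negative controls by mRNA sequencing, to ask which transcripts the compound changes in bone-forming cells that lack serum. The 5 libraries of this comparison, 3 of POG and 2 of the negative control, were taken by their labels from 13 labelled samples, of which 12 have a column in the count table. All came from hFOB 1.19, a cloned line of human fetal osteoblasts immortalized with a temperature-sensitive SV40 large T antigen, so every value below describes 1 cell line. Negative controls were grown without fetal bovine serum (FBS) and received the DMSO vehicle. POG libraries came from cells in the same serum-free medium with 1 µg/mL POG. For orientation, values are also given for positive controls grown in 10% FBS with DMSO (2 libraries), for resveratrol (RES, 3 libraries) and for the compound labelled DEG (2 libraries), both without serum and at the same 1 µg/mL. Nothing in the labels says that libraries of a group came from separate cultures. The p-values therefore measure only the spread between libraries of a group, pooled over all 12 libraries, which may be technical.

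Peonidin-3-O-glucoside is an anthocyanin, a plant pigment made of an anthocyanidin that carries a glucose. Osteoblasts build bone by secreting a collagen-rich matrix and by depositing mineral in it. They also steer the bone-resorbing osteoclasts through secreted signals, above all RANKL (TNFSF11), which drives osteoclast formation, and its decoy receptor osteoprotegerin (TNFRSF11B). Serum supplies growth factors, lipids and cholesterol, and cells without it usually divide less and make more of their own sterols.

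The POG libraries held 43628194 to 46033584 reads assigned to genes and the negative controls 38959432 and 40043770. Levels are given as CPM, the reads of a gene scaled to the library size, with totals scaled by edgeR's TMM method, and differences as log2 fold changes with their standard errors (SE). A gene counted as called when the false discovery rate (FDR) of edgeR's exact test was under 0.05. Of the osteoblast markers, COL1A1, COL1A2 and SPARC belong to the matrix programme, and the summed level of all 10 was 5286 to 5337 CPM in the negative controls and 4848 to 4885 CPM in POG. Bone sialoprotein (IBSP) had no read in any of the 5 libraries, which allows a level of up to 0.0652 to 0.0770 CPM, and osterix (SP7) fell below the count filter. Markers of osteoclasts and macrophages summed to 14.7 to 15.8 CPM in both groups, and those of adipocytes to 9.10 to 11.2 CPM, with FABP4, LPL and LEP at 0. Endothelial markers summed to 44.6 and 46.6 CPM in the negative controls and 38.5 to 40.8 CPM in POG, epithelial ones to 395 and 403 against 342 to 351 CPM, and chondrocyte ones to 22.3 and 26.0 against 27.0 to 28.3 CPM. Of these lists TEK, PECAM1, KRT8, KRT18 and SOX9 fell and MATN3 rose, the TEK and SOX9 calls being lost without negative control 2 (FDR 0.0997 and 0.133). The part of these markers in the results below was not tested.

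POG changed many transcripts by small amounts. Of 17092 genes tested, 2492 were called in POG against the negative controls, 14.6% of the total. Of these, 1022 were higher (5.98%) and 1470 lower (8.60%). The median absolute log2 fold change of the called genes was 0.22, and 395 of them reached 0.5, of which 127 were higher and 268 lower. A log2 fold change of 1 or more in either direction together with the FDR limit was met by 125 genes, 0.731% of those tested. Leaving out negative control 1 or negative control 2 lowered the 2492 calls to 1367 and 1362. With plain library totals in place of TMM, 56.0% of the called genes were higher (1506 higher, 1181 lower) against 41.0% with TMM, so the balance of rises and falls depended on the scaling, while the median log2 fold change of all genes moved only from 0.0023 to 0.026. In bulk RNA fewer cells that express a gene and less of its RNA per cell cannot be told apart. The strand setting of the counting is not given in the sources used here, and 126 of the 225 genes chosen for naming overlap a gene on the opposite strand in the GENCODE annotation, among them MMP3, THBS1, CEMIP, RSAD2, IFIT2, IL6, TIMP3 and HMGCS1, so reads from such a pair cannot be told apart.

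**Figure D1:**
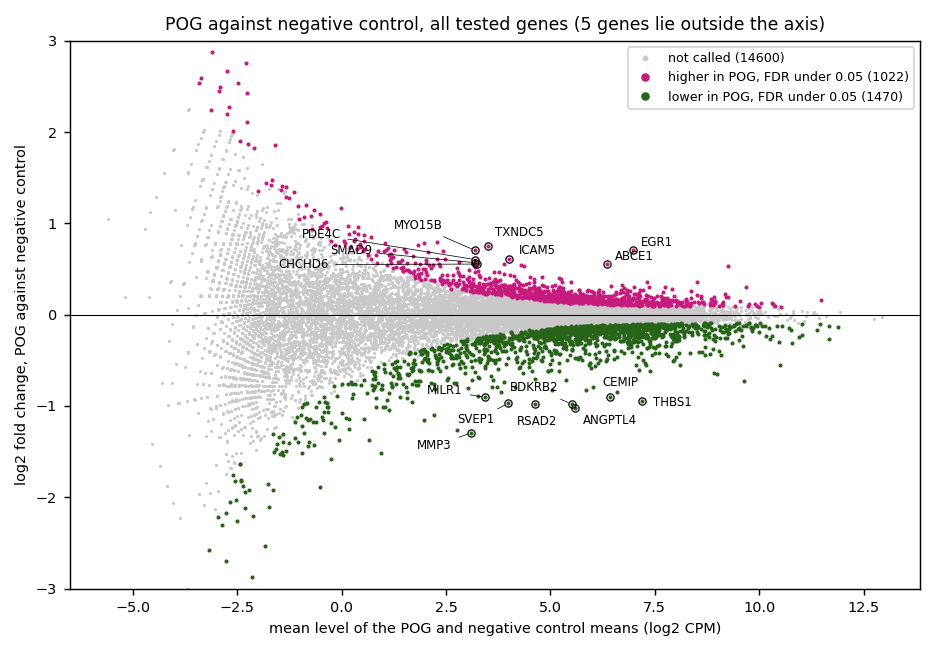
Each dot is 1 of the genes tested, at its mean level in POG and negative controls (x axis, log2 CPM) and its log2 fold change (y axis, POG against negative control), with the 1022 called higher in magenta and the 1470 called lower in green. The 8 largest called rises and falls among genes of at least 10 CPM whose libraries did not overlap are circled. The falls lie between -1.29 and -0.91 and the rises between 0.55 and 0.75. 5 genes lie outside the axis.

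The 8 largest falls and rises were taken from calls that reached a group mean of 10 CPM in POG or in the negative controls. Some genes, as MMP3 and MILR1 among the falls and MYO15B and TXNDC5 among the rises, met this limit only through the group in which they were higher. The libraries of the groups were also required not to overlap. MMP3 (stromelysin-1, a matrix-degrading protease) was at 11.9 and 12.6 CPM in the negative controls and at 5.44, 5.28 and 4.26 CPM in the POG libraries, a log2 fold change of -1.29 ± 0.10 (SE; edgeR FDR 2.4e-33). ANGPTL4, an inhibitor of lipoprotein lipase, went from 63.8 and 65.6 CPM to between 30.7 and 33.3 CPM (-1.02 ± 0.05). For both genes the gap between the groups was far wider than the spread inside either group, though separate libraries were a condition of this choice. The bradykinin receptor BDKRB2 fell by 0.98, the antiviral RSAD2 by 0.97, the matrix adhesion protein SVEP1 by 0.97, the hyaluronan-degrading protein CEMIP by 0.91 and the immunoglobulin-like receptor MILR1 by 0.91 on the log2 scale. THBS1 encodes thrombospondin-1, a matrix glycoprotein that restrains angiogenesis and activates latent TGF-beta. Its gene lies at chr15:39581079-39599466 on the plus strand (hg38), and its level was 189 and 194 CPM in the negative controls against 102, 98.9 and 98.1 CPM in POG (-0.94 ± 0.04, FDR 2.6e-111). The positive controls stood on the other side of the negative controls, at a mean of 259 CPM.

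Among the 8 rises, EGR1, an immediate early transcription factor, is induced by growth factor and stress signals. It lies at chr5:138465479-138469303 on the plus strand and was at 96.8 and 94.8 CPM in the negative controls and at 155, 161 and 155 CPM in POG (0.71 ± 0.04, FDR 2.5e-64). In serum the mean was 87.0 CPM, so the POG libraries stood above both kinds of control. ABCE1, which recycles ribosomes after termination, was at 65.2 and 67.9 CPM against 96.0 to 99.5 CPM (0.56 ± 0.04), and here the serum-grown cells were also high at a mean of 117 CPM. The adhesion molecule ICAM5 rose by 0.61, the cAMP phosphodiesterase PDE4C by 0.60, the BMP signal transducer SMAD9 by 0.57, CHCHD6, a subunit of the complex that shapes mitochondrial cristae, by 0.55 and MYO15B by 0.71. TXNDC5, a disulfide isomerase of the endoplasmic reticulum, rose by 0.75, but its negative controls stood apart at 10.2 and 6.69 CPM and without negative control 2 its FDR was 0.0522.

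Gene lists were then counted against the share called over all genes. Interferon-stimulated genes, chemokines, integrins, collagens and growth factor pathways held far more falls than the 8.60% of all genes, and genes of cholesterol synthesis and mitosis far more rises than the 5.98%. The lists overlap in places and were not tested as sets.

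**Figure D2:**
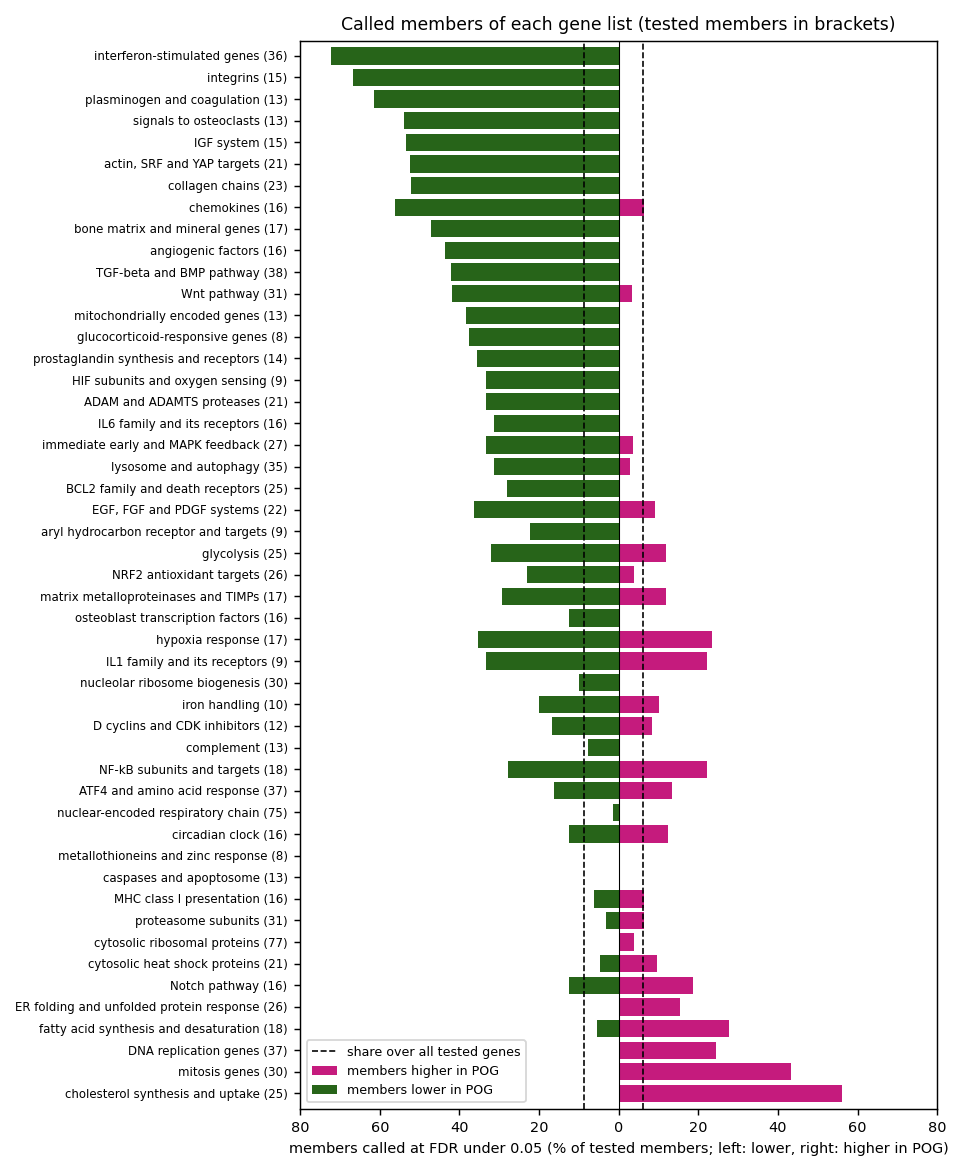
Bars give, for each list drawn, the percentage of tested members called at an edgeR FDR under 0.05. Members lower in POG are to the left and members higher to the right, with the number tested in brackets. Not all lists are drawn, the marker lists and the genes the study discusses being among those left out. Dashed lines mark the share over all tested genes, 8.60% lower and 5.98% higher; 26 of 36 interferon-stimulated genes extend farthest left and 14 of 25 cholesterol genes farthest right.

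Interferon-stimulated genes are switched on by type I interferon through the factor ISGF3, which binds a promoter element called the ISRE, and their products block viral replication. In POG, 26 of the 36 tested members fell and the other 10 did not pass the test. All 36 log2 fold changes were negative, with a median of -0.16 against 0.0023 over all genes. In 33 of the 36 all POG libraries lay below both negative controls, where 22.5% of all tested genes did so and 21.6% had all POG libraries above. The count of falls was 17 without negative control 1, 18 without negative control 2 and 21 with plain library totals. The largest falls are carried by genes of known antiviral proteins. RSAD2 (viperin, which makes a chain-terminating nucleotide) was at 32.5 and 33.3 CPM in the negative controls and at 16.8, 16.7 and 16.8 CPM in POG (-0.97 ± 0.06, FDR 1.5e-61). IFIT2, which binds foreign RNA, was at 126 and 122 CPM against 72.0, 65.6 and 69.1 CPM (-0.85 ± 0.04, FDR 1.6e-90). Both groups were tight and far apart in these genes. OASL, an oligoadenylate synthetase-like protein that enhances RNA sensing, fell by 0.53 and IFIT3, a partner of the other IFIT proteins, by 0.44 on the log2 scale. Of the 16 MHC class I presentation genes 1 rose and 1 fell, 12.5% called against 14.6% of all genes. The fall was that of NLRC5, the transactivator of MHC class I genes (-0.33). The rise, HLA-E at 0.10, was lost without either negative control. It was also lost without POG 2 or POG 3 (edgeR FDR 0.0586 and 0.0578).

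The promoters of this list were searched for an ISRE written as the letters GAAANNGAAA on either strand. Promoter windows from RefSeq (GRCh38.p14), 250 bases before to 50 bases after the gene start, were found for 29 of the 36 members. 18 of the 29 held the letters (62.1%), against 3.65% of all 27305 windows. Among members that fell, 11 of 21 held them, and among those that did not pass, 7 of 8 did. A match describes letters and not a bound site. The windows of the strongest falling member with an entry and of a member with matches are shown for the bases before the start, with ISRE letters in capitals, at chr2:6865635-6865884 (plus strand) for RSAD2 and chr10:89327747-89327996 (plus strand) for IFIT3.
RSAD2: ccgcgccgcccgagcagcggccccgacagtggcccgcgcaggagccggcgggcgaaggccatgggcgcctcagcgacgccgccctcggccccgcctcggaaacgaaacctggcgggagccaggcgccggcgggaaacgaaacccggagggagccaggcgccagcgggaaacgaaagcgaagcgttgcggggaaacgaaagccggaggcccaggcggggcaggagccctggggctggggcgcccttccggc
IFIT3: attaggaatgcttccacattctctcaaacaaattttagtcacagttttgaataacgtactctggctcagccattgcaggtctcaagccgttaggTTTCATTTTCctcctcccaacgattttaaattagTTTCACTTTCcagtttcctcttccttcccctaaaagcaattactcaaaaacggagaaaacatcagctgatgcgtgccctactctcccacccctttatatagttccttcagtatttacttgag
The IFIT3 window holds a pair of matches, both on the other strand, that begin 156 and 122 bases before the start. The RSAD2 window shown holds none of these letters. Only the first listed window of each gene was searched, so any other start of RSAD2 or of the other members was not covered.

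**Figure D3:**
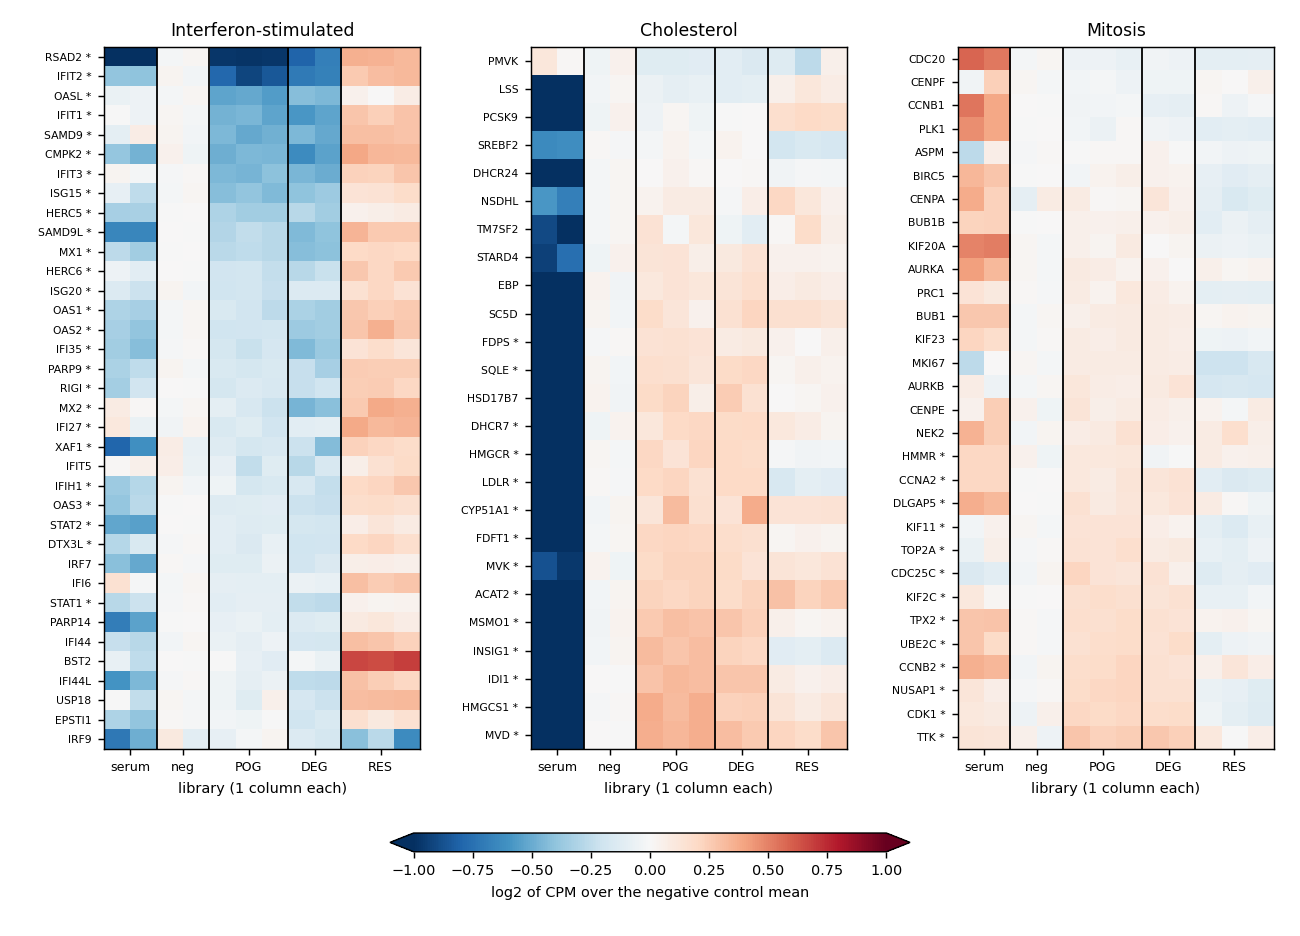
Rows are all tested interferon-stimulated (36), cholesterol (25) and mitosis (30) genes, columns are the 12 libraries, and colour gives the log2 of CPM over the negative control mean, with values beyond 1 in either direction drawn at the end colour and asterisks on genes called in POG against the negative controls. Interferon-stimulated genes are blue in POG and DEG and mostly red in RES, cholesterol genes are dark blue in serum and mostly pale red in POG, and most mitosis genes are pale red in POG.

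Chemokines attract immune cells, and cytokines such as interleukin-6 carry inflammatory signals between cells. Of 16 chemokines tested, 9 fell and 1 rose, with a median of -0.35, and these counts were the same whichever library was left out. CXCL1, a neutrophil attractant, was at 615 and 619 CPM in the negative controls and at 393, 386 and 396 CPM in POG (-0.66 ± 0.03, FDR 2.2e-79). CXCL3, of the same family, was at 42.1 and 41.6 CPM against 22.9, 22.9 and 25.1 CPM (-0.82 ± 0.05). The monocyte attractant CCL2 fell by 0.51 and CXCL12, which retains haematopoietic cells in the marrow, by 0.80 on the log2 scale. IL6, a cytokine that promotes both inflammation and osteoclast formation, was at 973 and 996 CPM in the negative controls and at 597, 583 and 606 CPM in POG (-0.73 ± 0.03, FDR 1.9e-101), with no overlap between the groups. Serum-grown cells lay between them at a mean of 740 CPM. In the IL6 family and its receptors 5 of 16 fell, among them IL11 (-0.22), the oncostatin M receptor OSMR (-0.21) and the shared signal chain IL6ST (-0.21), and the other 11 did not pass.

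The interleukin-1 branch moved in both directions. Its main receptor IL1R1 was at 171 and 167 CPM in the negative controls and at 109 to 113 CPM in POG (-0.61 ± 0.03), IL1B fell by 0.23 and the IL18 receptor chain IL18R1 fell by 0.90. The IL18 trap IL18BP rose by 0.22 but had an FDR of 0.105 without negative control 1, and the list's 2 rises among 9 members became 1 whichever library was left out. IL18 itself was at 1.37 and 1.16 CPM against 1.27 to 1.58 CPM and did not pass (edgeR FDR 0.72). Of 18 NF-kB subunits and targets 5 fell and 4 rose, the rises becoming 2 without negative control 2. The inhibitor NFKBIA (-0.21), NFKBIZ (-0.19) and the hyaluronan-binding TNFAIP6 (-0.28) fell. The adhesion molecule ICAM1 rose from 288 and 292 CPM to between 319 and 325 CPM (0.15). Of 14 genes of prostaglandin synthesis and reception 5 fell, or 3 without negative control 2. PTGES, the terminal synthase of prostaglandin E2, fell by 0.69 ± 0.08, PTGS2 (cyclooxygenase-2) by 0.30 from 151 and 153 CPM to between 118 and 128 CPM, and the receptors PTGER2 by 0.50 and PTGER4 by 0.43. The PTGER4 call was lost without negative control 2 (FDR 0.159).

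Matrix genes fell with POG, from fibrillar collagens to their receptors. Of 23 collagen chains tested 12 fell, with a median of -0.12, and the other 11 did not pass. COL3A1, the chain of type III collagen, was at 1698 and 1754 CPM in the negative controls and at 1168, 1188 and 1166 CPM in POG (-0.56 ± 0.02, FDR 2.0e-71). The chains of type I collagen, the main protein of bone, moved less, with COL1A2 at 1330 and 1363 CPM against 1112, 1120 and 1118 CPM (-0.27 ± 0.02) and COL1A1 at 2836 and 2853 CPM against 2516, 2556 and 2532 CPM (-0.17 ± 0.02). COL12A1, which decorates collagen fibrils, fell by 0.57, COL8A1 by 0.34 and the basement membrane chain COL4A5 by 0.25. Of 15 integrins 10 fell, with a median of -0.21. The collagen-binding ITGA10 was at 73.9 and 74.5 CPM in the negative controls and at a mean of 41.8 ± 1.92 CPM (SD, n = 3) in POG (-0.83 ± 0.05), and the other collagen receptors ITGA2 (-0.53) and ITGA11 (-0.43) and the laminin receptor ITGA3 (-0.27) also fell. Levels of ITGA10 stood lower still in serum, at a mean of 21.7 CPM.

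Among 17 other bone matrix and mineral genes 8 fell and the rest did not pass. The collagen-organizing proteoglycan lumican (LUM) fell by 0.71, periostin (POSTN) by 0.35 and fibronectin (FN1) by 0.22, the last from 2236 and 2274 CPM to between 1920 and 1941 CPM. Osteopontin (SPP1), a mineral-binding protein, had 77 and 93 reads in the negative controls and 43, 55 and 70 in POG, and its fall of 0.81 was lost without negative control 2 (FDR 0.145) or POG 1 (FDR 0.0600). Of 17 matrix metalloproteinases and their inhibitors 5 fell and 2 rose, the rises being lost without negative control 2. The falls included both enzymes and inhibitors. TIMP3, a matrix-bound inhibitor, was at 81.8 and 82.9 CPM against 47.8, 47.4 and 47.2 CPM (-0.79 ± 0.04, FDR 1.5e-74), the collagenase MMP1 fell by 0.72 and TIMP2 by 0.18. Of 21 ADAM and ADAMTS proteases 7 fell, the largest in ADAMTS10 (-0.61), followed by ADAMTS12 (-0.32), ADAM12 (-0.31) and ADAMTS6 (-0.25).

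In the plasminogen and coagulation system 8 of 13 genes fell, 6 without negative control 1 and 5 without any one of the other 4 libraries. SERPINE2, a protease inhibitor of thrombin and plasminogen activators, was at 579 and 590 CPM against 376, 376 and 375 CPM (-0.64 ± 0.03, FDR 1.3e-91). Its POG libraries differed from each other by far less than from the controls. The plasminogen activator PLAU fell by 0.34, the thrombin receptor F2R by 0.35 and the protease inhibitor TFPI2 by 0.25.

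**Figure D4:**
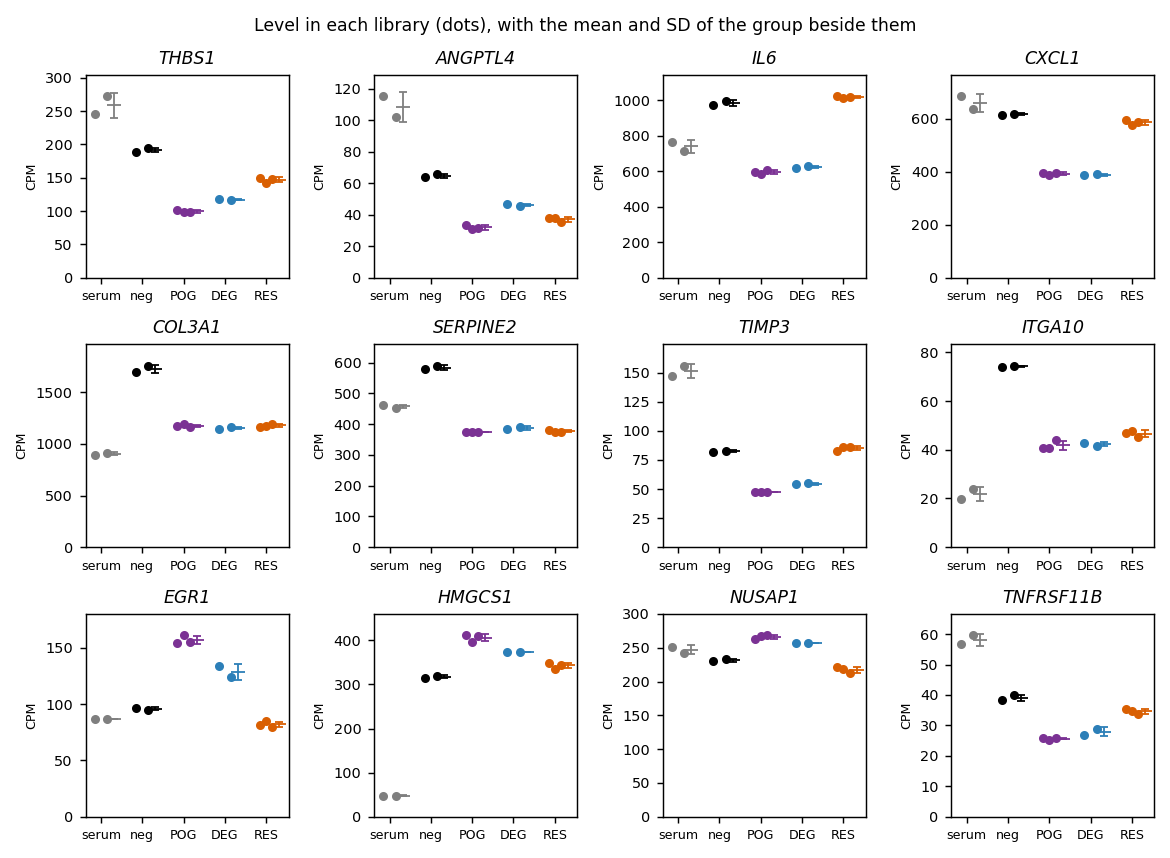
Each panel gives 1 gene, with the level in CPM on the y axis from 0, every library as a dot and the group mean with SD beside the dots, for positive controls (serum), negative controls (neg), POG, DEG and RES. IL6 is below the negative controls in POG and DEG but at 1012 to 1023 CPM in RES, COL3A1 and SERPINE2 are below them with all 3 compounds, and EGR1 is highest in POG.

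Growth factor pathways had many more falls than rises. Of 38 listed genes of the TGF-beta and BMP pathway 16 fell, 13 to 17 with 1 library left out, and the median was -0.17. The BMP signal transducer SMAD9, which rose by 0.57, was not a member of this list. The ligand TGFB2 was at 22.4 and 23.2 CPM against 15.4, 14.6 and 15.5 CPM (-0.59 ± 0.06), the co-receptor TGFBR3 fell by 0.50, the ligand-storing LTBP2 by 0.30 and the BMP antagonist GREM1 by 0.24. Of 31 Wnt pathway genes 13 fell and 1 rose, with 8 falls left without negative control 1 and the rise lost without negative control 2 or POG 3. The receptors FZD4 (-0.53) and FZD8 (-0.40) and the amplifier RSPO3 (-0.54) fell, as did the antagonist DKK1 from 4.31 and 4.25 CPM to 2.64, 1.88 and 2.09 CPM (-0.96 ± 0.14). In the IGF system 8 of 15 fell, or 5 without negative control 2, among them the docking proteins IRS1 (-0.43) and IRS2 (-0.21), the binding protein IGFBP5 (-1.01, at 2.61 and 2.87 CPM in the negative controls) and STC1 (-0.19). Among 22 genes of the EGF, FGF and PDGF systems 8 fell and 2 rose, the rises becoming 1 without negative control 1, negative control 2, POG 1 or POG 3. FGF1 fell by 0.85, FGF2 by 0.42 from 316 and 303 CPM to between 228 and 237 CPM, the receptor PDGFRB by 0.35 and its ligand PDGFC by 0.27.

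Of 27 immediate early and MAPK feedback genes 9 fell and 1 rose, the riser being EGR1. Falls included JUN, a subunit of AP-1, from 166 and 164 CPM to 131, 133 and 132 CPM (-0.32 ± 0.03), the survival gene IER3 (-0.40) and PHLDA1 (-0.26). Targets of actin, SRF and YAP signals, which report on mechanical tension, held 11 falls among 21, or 8 without negative control 1. CCN2 (connective tissue growth factor) was at 221 and 226 CPM against 166, 167 and 169 CPM (-0.42 ± 0.03), and CCN1 at 466 and 463 CPM against 368, 354 and 368 CPM (-0.35 ± 0.03). Both were higher in serum, with means of 339 and 907 CPM. The cytoskeletal genes TPM1 (-0.47) and ACTG1 (-0.29) fell with them. Of 16 angiogenic factors 7 fell, or 4 without negative control 2, among them the VEGF co-receptor NRP1 (-0.46), ANGPTL2 (-0.36) and VEGFC (-0.24).

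The response to low oxygen was split. VEGFA, the main angiogenic growth factor, was at 209 and 206 CPM in the negative controls and at 155, 158 and 154 CPM in POG (-0.42 ± 0.03), and adrenomedullin (ADM) fell by 0.48. P4HA1, a prolyl hydroxylase that modifies collagen, went the other way from 146 and 148 CPM to 182, 182 and 179 CPM (0.30 ± 0.03). Over the list of 17 hypoxia-responsive genes 6 fell and 4 rose, and the rises became 1 without negative control 1 and 2 without negative control 2, POG 1 or POG 2. Among the HIF subunits and oxygen sensors HIF1A was at 440 and 434 CPM against 388, 389 and 382 CPM (-0.18 ± 0.03, FDR 1.3e-06) and the HIF antagonist CITED2 fell by 0.53. ARNT2, a HIF partner, fell by 0.28, with its call lost without negative control 2 (FDR 0.554), POG 2 (0.0761) or POG 3 (0.129) and in 3 other alternatives. HIF1AN, which hydroxylates and restrains HIF1A, was at 89.5 and 95.5 CPM against 92.5 to 99.1 CPM and did not pass (0.04, edgeR FDR 0.65). Among 25 glycolysis genes 8 fell and 3 rose, the rises becoming 1 without negative control 1, with falls in the glucose transporter SLC2A1 (-0.29), HK2 (-0.31) and PKM (-0.24) and a rise in ALDOC (0.27).

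Osteoblasts signal to osteoclasts through secreted factors, and of 13 such genes 7 fell in POG. The decoy receptor TNFRSF11B was at 38.4 and 39.9 CPM in the negative controls and at 25.7, 25.4 and 25.8 CPM in POG (-0.61 ± 0.05, FDR 3.5e-28), below the serum mean of 58.1 CPM. RANKL itself (TNFSF11) was barely detected, with 24 and 7 reads in the negative controls and 3, 2 and 2 in POG, and the reads per total were 0.133 times those of the negative controls, with an exact 95% counting interval of 0.0494 to 0.308. Its edgeR FDR of 1.2e-04 became 0.281 without negative control 1, and DESeq2 gave no adjusted p. The macrophage growth factor CSF1 fell by 0.23, WNT5A by 0.23 and SEMA3A, which restrains osteoclast formation, by 0.26.

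Of 16 tested genes listed as osteoblast transcription factors, SOX9 and ZEB2 fell and the other 14 did not pass. The share called was 12.5% against 14.6% of all genes. SOX9 is also counted above as a chondrocyte marker, so its fall is not that of an osteoblast factor alone. The SOX9 fall (-1.01, from 77 and 133 reads to 64, 53 and 63) was lost without negative control 2 (FDR 0.133), and ZEB2 (-0.14) was lost without negative control 1, negative control 2, POG 1 or POG 2. RUNX2, the master regulator of osteoblast fate, was at 49.5 and 44.7 CPM in the negative controls and at 51.3, 48.2 and 48.1 CPM in POG, an overlap of the groups (0.06 ± 0.05, edgeR FDR 0.51). DLX5, a homeobox activator of bone genes, had 28 and 40 reads against 66, 81 and 48, and its log2 fold change of 0.73 ± 0.30 did not pass (FDR 0.080). The ratio of its reads was 1.69, with a counting interval of 1.27 to 2.26 that leaves out the spread between libraries. SP7 had 0 and 5 reads in the negative controls and 6, 8 and 6 in POG, a ratio of 2.35 with an interval of 0.857 to 8.03, and was too sparse for the test.

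Genes of cholesterol synthesis rose. Cells make cholesterol from acetyl-CoA through the mevalonate pathway, whose genes the SREBP2 factor switches on when sterol is low. 14 of the 25 tested genes rose and the other 11 did not pass, with a median of 0.16. In 19 of the 25 all POG libraries lay above both negative controls, against 21.6% of all genes. The rises numbered 11 without either negative control and 18 with plain library totals. HMGCS1, which makes the mevalonate precursor, was at 315 and 320 CPM in the negative controls and at 411, 396 and 410 CPM in POG (0.35 ± 0.03, FDR 5.5e-24). MVD, a later step of the same pathway, was at 140 and 140 CPM against 180, 176 and 180 CPM (0.35 ± 0.04), the isomerase IDI1, which acts next, rose by 0.31, and INSIG1, a sterol-sensing inhibitor of SREBP processing, rose from 727 and 752 CPM to 921, 894 and 913 CPM (0.30 ± 0.03). Serum-grown cells stood far below both groups, with means of 47.9 CPM for HMGCS1, 58.1 CPM for MVD, 62.1 CPM for IDI1 and 270 CPM for INSIG1. POG lay farther from the serum level than the negative controls did in these genes. In fatty acid synthesis and desaturation 5 of 18 rose and 1 fell, but the rises were 2 without negative control 1 and 3 without negative control 2. ACSS2, which activates acetate, rose by 0.29. ELOVL5 (0.15) was lost without negative control 1 (FDR 0.0686) and ELOVL6 (0.20) without negative control 2 (FDR 0.172), and the desaturase-like FADS3 fell by 0.16.

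Genes of cell division rose slightly. Of 30 mitosis genes 13 rose and the other 17 did not pass, with a median of 0.09. In 23 all POG libraries lay above both negative controls, against 21.6% of all tested genes. The rises fell to 8 without negative control 2. NUSAP1, which bundles spindle microtubules, was at 230 and 233 CPM against 263, 267 and 268 CPM (0.20 ± 0.03, FDR 1.8e-07). CDK1, the mitotic kinase, was at 145 and 156 CPM against 174, 172 and 173 CPM (0.20 ± 0.03), the spindle checkpoint kinase TTK rose by 0.25 and the spindle assembly factor TPX2 by 0.17. Of 37 DNA replication genes 9 rose, 7 without either negative control, among them the ribonucleotide reductase chains RRM1 (0.17) and RRM2 (0.19), the licensing factor CDT1 (0.20) and the S-phase cyclin CCNE2 (0.24). The G1 cyclin CCND1, which growth factors induce, went the other way from 150 and 150 CPM to 128 in each POG library (-0.23 ± 0.03, FDR 1.7e-09), away from its serum mean of 328 CPM. The size of these rises is small next to the falls above, with no log2 fold change over 0.26 in the replication list.

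The promoters of the lists with rises were searched for CCAAT, the letters bound by NF-Y, on either strand. In cholesterol genes 15 of 18 windows held it (83.3%) and in mitosis genes 21 of 25 (84.0%), against 35.7% of all windows. In DNA replication genes 17 of 31 did (54.8%). Members that rose did not hold it more often than the others, with 7 of 9 against 8 of 9 in cholesterol genes, 8 of 10 against 13 of 15 in mitosis genes and 3 of 8 against 14 of 23 in replication genes. Examples are HMGCS1 at chr5:43313413-43313662 (minus strand), MVD at chr16:88663092-88663341 (minus strand), NUSAP1 at chr15:41332631-41332880 (plus strand) and CDK1 at chr10:60778081-60778330 (plus strand), each for the 250 bases before the start with CCAAT or its reverse complement in capitals.
HMGCS1: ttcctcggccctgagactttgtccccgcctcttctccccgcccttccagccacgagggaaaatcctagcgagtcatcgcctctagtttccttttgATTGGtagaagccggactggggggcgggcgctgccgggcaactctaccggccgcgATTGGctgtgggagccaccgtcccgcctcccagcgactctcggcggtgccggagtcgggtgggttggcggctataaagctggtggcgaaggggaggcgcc
MVD: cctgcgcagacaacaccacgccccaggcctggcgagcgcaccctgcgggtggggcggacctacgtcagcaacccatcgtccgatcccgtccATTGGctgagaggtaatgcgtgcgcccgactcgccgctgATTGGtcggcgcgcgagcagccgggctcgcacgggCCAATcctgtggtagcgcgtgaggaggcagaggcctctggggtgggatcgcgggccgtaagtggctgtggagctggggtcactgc
NUSAP1: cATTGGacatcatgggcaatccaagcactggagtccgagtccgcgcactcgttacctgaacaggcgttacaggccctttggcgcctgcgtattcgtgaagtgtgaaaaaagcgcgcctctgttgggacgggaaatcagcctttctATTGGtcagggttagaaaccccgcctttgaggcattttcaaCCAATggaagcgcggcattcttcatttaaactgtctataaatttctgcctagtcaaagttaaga
CDK1: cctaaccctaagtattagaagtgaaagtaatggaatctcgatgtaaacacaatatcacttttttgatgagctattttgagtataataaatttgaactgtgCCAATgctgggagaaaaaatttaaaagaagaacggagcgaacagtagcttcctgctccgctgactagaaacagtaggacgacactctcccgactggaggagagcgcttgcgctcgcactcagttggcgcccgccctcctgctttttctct
The matches begin 155 and 100 bases before the start in HMGCS1, 159, 120 and 85 in MVD, 249, 105 and 64 in NUSAP1 and 150 in CDK1. They describe letters and not bound sites.

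Genes of cell death moved by small amounts. Serum withdrawal sets off apoptosis in many cell types, and the BCL2 family decides whether mitochondria release the death signal. Of 25 BCL2 family and death receptor genes 7 fell and the other 18 did not pass. BCL2L1 (BCL-XL), which protects cells, was at 83.6 and 84.3 CPM against 73.4, 68.7 and 71.2 CPM (-0.24 ± 0.04), the pro-death PMAIP1 (NOXA) fell by 0.21, the death receptor TNFRSF21 by 0.39 and the adaptor FADD by 0.21. BCL2L11 (BIM) fell by 0.18 but was lost without negative control 1 (FDR 0.402) or POG 3 (FDR 0.0504). BCL2, BCL2A1, BAD, BAX and BAK1 lay between -0.08 and 0.12 on the log2 scale and did not pass. CASP6 and CASP9 had log2 fold changes of 0.21 and 0.05 and did not pass (edgeR FDR 0.15 and 0.80). Among DNA damage response genes RRM2B rose by 0.21, while DDB2 (0.18), FDXR (0.21) and CCNG1 (0.13) were lost without negative control 1, CCNG1 also without negative control 2 or POG 3. TP63 had 27 and 13 reads against 3, 8 and 7, a ratio of 0.265 with an interval of 0.143 to 0.473, and its call was lost without negative control 1 (FDR 0.319).

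POG was set directly against the other compounds at the matched labelled concentration, 2 pairs in all, which share the POG libraries. Resveratrol is a stilbene that carries no sugar, while POG is a glucoside of an anthocyanidin. The label DEG is not spelled out, and no structure is compared for it. Against RES 4765 genes were called (27.9%), 2348 higher in POG (13.7%) and 2417 lower (14.1%). Against DEG 183 were called (1.07%), 85 higher in POG (0.497%) and 98 lower (0.573%). With p-values adjusted over both pairs together, 4219 genes differed from RES and 620 from DEG. The 2 pairs do not have the same number of libraries, and the count of 183 against DEG became 31 without DEG 1, 35 without DEG 2 and 94, 97 and 103 without POG 1, POG 2 and POG 3.

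Interferon-stimulated genes differed between POG and RES. Of the 36 members 35 were lower in POG than in RES and 1 higher, with a median difference of -0.39, whereas against DEG 7 were higher in POG and 2 lower. RSAD2 was at 42.1, 42.0 and 41.4 CPM with RES and at 16.7 to 16.8 CPM with POG, a difference of -1.32 ± 0.05 (FDR 1.3e-154), and IFIT2 differed by -1.14. RES libraries of both genes lay above the negative controls, and POG libraries below them. IL6 was also lower in POG than in RES, at 583 to 606 CPM against 1012 to 1023 CPM (-0.77 ± 0.02). No gene of the IL6 family and its receptors was called higher with RES than in the negative controls. The crosslinking enzyme TGM2 (-0.91) and the surface sialomucin PODXL (-0.79) were lower in POG than in RES too. EGR1 was higher in POG than in RES by 0.94 ± 0.03. Mitosis genes were higher in POG in 21 of 30 and cholesterol genes in 13 of 25, with 2 lower. Actin, SRF and YAP targets were lower in POG in 16 of 21. In other genes no difference was detected, as in COL3A1 with -0.0041 (95% interval -0.05 to 0.04) and SERPINE2 with -0.0052 (-0.05 to 0.04). The antioxidant gene NQO1, by contrast, was 0.79 higher in POG, with a RES mean of 49.9 CPM and POG at 86.1 to 87.2 CPM.

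Fewer genes differed between POG and DEG, and the 6 named for the smallest p were all called between POG and RES too. CCN2 was at 236 and 228 CPM with DEG and at 166 to 169 CPM with POG, a difference of -0.47 ± 0.03 (FDR 3.6e-38), and CCN1 differed by -0.38 ± 0.03. DEG libraries stood at or above the negative controls for both, and POG libraries below. ANGPTL4 differed by -0.53 (95% interval -0.64 to -0.43), the matrix proteins TINAGL1 by -0.45 and LTBP3 by -0.28, and the binding protein IGFBP6 by -0.40. IGFBP6 did not differ beyond its spread between POG and the negative controls (-0.06, edgeR FDR 0.54), and its levels were 51.8 and 55.3 CPM with DEG and 63.5 to 65.1 CPM with RES, against 39.5 to 41.3 CPM with POG. THBS1 differed by -0.24 (-0.31 to -0.16) and EGR1 by 0.29 (0.21 to 0.36). For the inflammatory genes the differences were small or not called, with IL6 at -0.07 (-0.12 to -0.02, edgeR FDR 0.43) and CXCL1 at 0.01 (-0.05 to 0.07, FDR 0.97). HMGCS1 was 0.12 higher in POG than with DEG (edgeR FDR 0.036). It was the 1 call between POG and DEG among the 25 cholesterol genes, whose median difference was 0.0091. None of the 30 mitosis genes was called between them. With DEG against the negative controls 16 cholesterol genes (median 0.19) and 8 mitosis genes (median 0.07) rose, against 14 and 13 with POG. The rises of these lists were therefore not particular to POG.

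**Figure D5:**
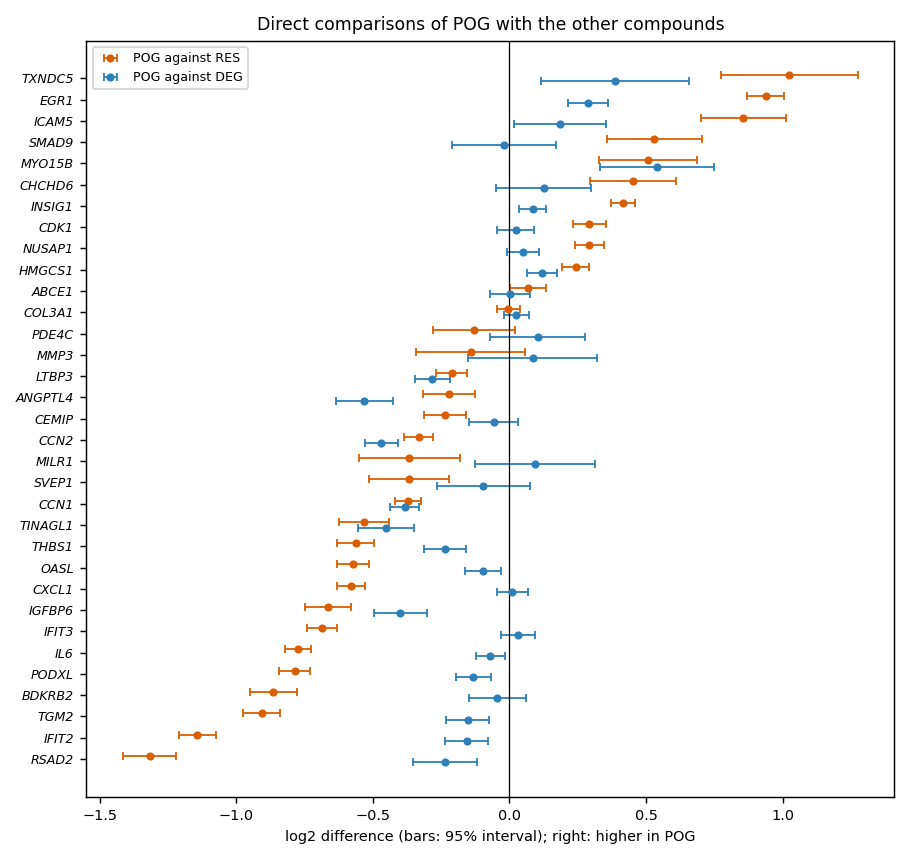
Points are log2 differences of POG from RES (orange) and from DEG (blue) for a selection of the named genes, with bars of 95% intervals and values to the right higher in POG. Of the genes drawn, RSAD2 and IFIT2 lie farthest left against RES, at -1.32 and -1.14, and TXNDC5 and EGR1 farthest right, while most DEG differences lie within 0.5 of 0.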

How the data were processed

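Poly(A)-selected mRNA libraries (Universal Plus mRNA-Seq kit) of hFOB 1.19 cells were sequenced on a NovaSeq. The deposited file holds raw counts per Ensembl gene, which the authors made by aligning reads to hg38 with STAR (BWA MEM is also named) and counting with featureCounts; versions, annotation release and strand setting are not given in the sources used here. Groups came from the treatment labels. Labels gave 13 samples, and the third DEG sample was not analysed here. Of 43836 genes, 43214 were paired with a symbol and 29555 had a read. Total counts ran from 38464619 to 51416358 per library.

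Counts were tested with edgeR 4.0.16 in R 4.3.3: TMM scaling, filterByExpr by group (17092 genes, 99.967% of reads), dispersions over all 12 libraries, exact tests and Benjamini-Hochberg adjustment over all tested genes, called at an FDR under 0.05. SEs came from the quasi-likelihood fit, and 95% intervals are normal ones from them. Intervals of read ratios are exact binomial ones and cover counting error only. CPM values were computed from the deposited counts and TMM-scaled totals. The summed marker levels used plain totals. The procedure was tested on simulated data. Replicate libraries differed by more than counting noise (chi-square per gene 2.10 to 2.50 within both groups), and no pair was identical. The positive control pair, which also entered the dispersions, had a chi-square per gene of 10.96.

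Genes named were the 8 largest called rises and falls of at least 10 CPM whose libraries did not overlap, up to 4 called members of smallest p per list with at least 1 CPM, the genes the study discusses, the 2 most abundant members of lists with fewer than 2 calls, and the 6 genes of smallest p against RES and against DEG. The members and the 57 lists (6 of them markers) were chosen with earlier results of these data known; lists carry counts and medians and no test. Some results are not reported here. SOD2 was left out because its symbol is paired with more than 1 identifier. Genome positions of genes come from GENCODE v44 and promoter windows from RefSeq GRCh38.p14, with only the first listed window of each gene used. Alternatives were the quasi-likelihood test, DESeq2 1.42.0, other size factors, other filters, the dispersion of the compared groups alone, a stricter FDR of 0.01, a fold limit and leaving out each library.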

Additional observations from a re-analysis of the deposited data

How the results depend on the processing

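Of the 197 genes named that passed in POG against the negative controls, 147 passed under all 12 alternatives tried gene by gene and 50 were lost under at least 1, most often without negative control 1 or negative control 2. The 2492 calls became 125 with a log2 fold limit of 1 and 1534 at an FDR of 0.01, and ran from 1362 to 1950 with 1 library left out. With the dispersion of the compared groups alone they became 3603. Calls of POG against DEG (183) became 103 with the quasi-likelihood test and 827 with the dispersion of the compared groups alone, and ran from 31 to 103 with 1 library left out. Calls of POG against RES (4765) stayed within 1.5 times in every alternative run, from 3893 to 5851. Of the called genes 41.0% were higher with TMM, 40.9% with DESeq2 size factors and 56.0% with plain totals; no named gene that passed changed its sign. No paired analysis was possible because the labels give no replicate numbers and the numbers used here follow accession order. The alternative without the third DEG sample was not run, as it was not analysed here. With 2 negative controls, 1 library decides many small differences, and genes with few reads such as TNFSF11, TP63, SP7 and DLX5 are limited by depth.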

Other observations

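Antioxidant genes showed a mixed picture. Of 26 targets of NRF2, the factor that answers oxidative stress, 6 fell and 1 rose in POG against the negative controls, the falls becoming 3 and the rise being lost without negative control 2. AKR1B1, which reduces glucose to sorbitol, was at 200 and 206 CPM in the negative controls and at 131, 135 and 130 CPM in POG (-0.62 ± 0.03, edgeR FDR 1.5e-61), and EPHX1 fell by 0.26. NQO1 (-0.15) lost its call without negative control 2 (FDR 0.164) and AKR1C1 (-1.23, near 1 CPM) without negative control 1 (FDR 0.0536). Against RES the same list had 15 members higher in POG and 1 lower. Among 9 genes of the aryl hydrocarbon receptor, 2 fell, AHR itself (-0.27) and NQO1, and both calls were lost without negative control 2.

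Amino acid and stress genes moved both ways. Of 37 genes of the ATF4 response 6 fell and 5 rose, with the amino acid transporter SLC38A2 at 430 and 427 CPM against 324, 317 and 326 CPM (-0.41 ± 0.03), WARS1 (-0.32) and DDIT4 (-0.22) lower and EPRS1 (0.22) higher; the rises became 2 without negative control 2 and 3 without negative control 1 or POG 3. Of 8 glucocorticoid-responsive genes 3 fell, led by SGK1 (-0.48) and the receptor NR3C1 (-0.21). The zinc and iron importer SLC39A14 was at 466 and 486 CPM against 349 to 354 CPM (-0.44 ± 0.03), and the transferrin receptor TFRC (0.15) lost its call without negative control 1 (FDR 0.102). Complement C3 was at 517 and 520 CPM against 379 to 394 CPM (-0.43 ± 0.03), the 1 call among 13 complement genes. In the Notch pathway NOTCH3 fell from 788 and 804 CPM to between 643 and 669 CPM (-0.28) and the ligand JAG2 rose from 4.26 and 3.92 CPM to between 6.05 and 7.69 CPM (0.70), while NOTCH1 did not pass (-0.01, edgeR FDR 0.95).

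Of 35 lysosome and autophagy genes 11 fell and 1 rose, among them LAMP1 (-0.16), and the falls became 7 without negative control 1, POG 1 or POG 2 and 3 without negative control 2. Of the 13 mitochondrially encoded genes 5 fell, and MT-ND6, the one encoded on the light strand, fell by 0.39 ± 0.05; the count was 1 without negative control 1 and 2 without any other library. Against 14.6% called over all genes, 3.90% of the 77 cytosolic ribosomal proteins were called (3 rises) and 1.33% of the 75 nuclear-encoded respiratory chain genes (1 fall). Among other lists were the 31 proteasome subunits with 2 rises and 1 fall, the 30 nucleolar ribosome biogenesis genes with 3 falls, the 21 cytosolic heat shock proteins with 2 rises and 1 fall, the 16 circadian clock genes with 2 of each, the 12 D cyclins and CDK inhibitors with 1 rise and 2 falls and the 10 iron genes with 1 rise and 2 falls (30.0%). The ribosomal rises became 2 or fewer with any library left out, 1 without negative control 2 or POG 2 and none without negative control 1, and the respiratory fall and the proteasome fall were lost whichever library was left out. The 2 proteasome rises became 1 without negative control 1 or POG 3 and were lost without negative control 2, POG 1 or POG 2. The nucleolar falls became 1 without negative control 1, POG 1 or POG 3, the D cyclin rise was lost without negative control 1, negative control 2, POG 1 or POG 2, and the iron rise without negative control 1. The heat shock rises became 1 without negative control 1 or POG 1, and the circadian counts became 1 of each without negative control 1, negative control 2 or POG 2. Of 26 genes of endoplasmic reticulum folding 4 rose, among them MANF (0.14) and HSP90B1 (0.11), and the rises became 1 without negative control 1 and none were left without negative control 2.

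The study discusses 28 of these genes, 27 of which were tested, and 11 of them fell while the other 16 did not pass. The falls numbered 8 without negative control 1. The study chose these genes on the same samples, so their count is not independent evidence.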
